A study of Mus musculus with 9 samples.

Results

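Semaphorins, plexins and neuropilins are a family of guidance cues and their receptors, and all genes of the deposited table whose names carry the family symbols were examined. They were 31 genes of 54456 gene names, namely 20 semaphorins of classes 3 to 7, 9 plexins and 2 neuropilins. Membership was set by gene names only, but the family was chosen with earlier results of these data known. RNA was sequenced from aggregates of flow-sorted mammary epithelial cells of wild-type mice. The mixed aggregates held a 50% mixture of basal and luminal cells, the luminal aggregates held luminal cells only, and the basal aggregates held basal cells only, with 3 libraries of each kind. All 9 libraries come from aggregates that had moved through 80% Matrigel towards heparin sulfate beads (100 to 150 µm) soaked in FGF10, a growth factor that attracts mammary epithelium. The treatment label gives 56 h and the sample titles give 55 h. The labels state neither the strain nor the age of the mice, nor whether aggregates were pooled, and aggregates without FGF10 were not analysed here.

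Semaphorins signal mainly through plexins, large transmembrane receptors whose inner part switches off small Ras-family GTPases and reshapes the cytoskeleton and adhesion to the matrix. The secreted class 3 semaphorins mostly need a neuropilin as the ligand-binding part of the receptor, whereas the membrane-bound classes 4 to 7 bind plexins directly. In epithelia the family is known for steering or holding back cell movement and for acting between neighbouring cells, and in the ductal epithelium of the mammary gland luminal cells line the lumen while contractile basal cells surround them.

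Each library held between 15585324 and 19164405 counts, and 3 counts, used as the floor of detection, stood for 0.152 to 0.187 counts per 1000000 (CPM, after TMM scaling). Floors cover counting error only. The summed level of 12 basal and myoepithelial markers (keratin 5, keratin 14, smooth muscle actin and others) was 6740 to 7980 CPM in mixed, 1470 to 2900 CPM in luminal and 10700 to 12300 CPM in basal libraries. Keratin 14 (2500, 2550 and 1290 CPM) made up most of that sum in luminal libraries. The summed level of 15 luminal markers was 11700 to 13800 CPM in mixed, 9900 to 13700 CPM in luminal and 4360 to 4960 CPM in basal libraries. Of these, Krt19 had means of 4537, 1336 and 856.3 CPM in mixed, luminal and basal aggregates. Krt8, Krt18, Krt7, Epcam, Cldn3, Cldn4 and Muc1 had lower means in mixed than in luminal aggregates. Cldn7, Elf5, Kit, Prlr, Esr1, Pgr and Gata3 had higher ones. The column names of the deposited table carry 3 code series, whose meaning is not given. Series A holds mixed 1, 2 and 3 with basal 2, series B holds luminal 1 with basal 1 and 3, and series C holds luminal 2 and 3, so that no series holds both mixed and luminal libraries. Basal 2 correlated less with basal 1 and basal 3 (r = 0.947 and 0.956 across genes) than those with each other (r = 0.99), and its r with the mixed libraries was 0.93 to 0.946. Each difference below was therefore also fitted with the code series as a term. Series C holds luminal libraries only, so luminal 2 and 3 do not set any group difference in that fit. Luminal versus basal then rests on luminal 1 against basal 1 and 3, and mixed versus basal on the mixed libraries against basal 2. Mixed versus luminal joins these 2 steps, with no direct comparison. A call kept or ended with that term is thus no check on 3 libraries of each group. The labels do not say that the libraries of a group come from separate animals or cultures, so p-values measure only the spread between these libraries. In such bulk samples, fewer cells of a type and less RNA per cell cannot be told apart.

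Per exon length, transcripts of the semaphorin class were most abundant in basal aggregates. Their summed level, in reads per kilobase of exon (RPKM, the CPM divided by exon length), was 43.4 ± 4.58 in mixed, 53.5 ± 6.48 in luminal and 84.6 ± 14.8 in basal aggregates (SD, n = 3 each). The lowest basal library, basal 2 with 70.3 RPKM, lay above the highest library of the other groups, luminal 3 with 60.4 RPKM. Sema3b alone had at least 14.1 RPKM in each basal and at most 1.38 RPKM in each luminal library, a step larger than that gap. Class 4 semaphorins were not highest in basal aggregates (15.5 ± 1.92, 24.7 ± 4.77 and 23.9 ± 7.59 RPKM in mixed, luminal and basal), nor was class 7 (0.379, 0.232 and 0.0643 RPKM). Summed plexin transcripts were closer together, at 40.8 ± 3.20, 49.0 ± 6.43 and 49.3 ± 7.43 RPKM in mixed, luminal and basal aggregates, with overlapping libraries. Neuropilins were low throughout, at 0.945 ± 0.238, 0.441 ± 0.168 and 0.816 ± 0.184 RPKM in the same order of groups. The semaphorin with the highest mean level differed between the groups. It was Sema3c in mixed aggregates with 10.3 RPKM, Sema3f in luminal aggregates with 14.3 RPKM and Sema3b in basal aggregates with 17.5 RPKM. Sema3b made up 1.92% of all semaphorin RPKM in mixed, 2.06% in luminal and 20.7% in basal aggregates. The receptor pool was led in each group by Plxnb2, a plexin that binds class 4 semaphorins, with 18.8, 24.8 and 21.7 RPKM in mixed, luminal and basal aggregates. That was 46.0%, 50.6% and 44.0% of all plexin RPKM in those groups.

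**Figure D1:**
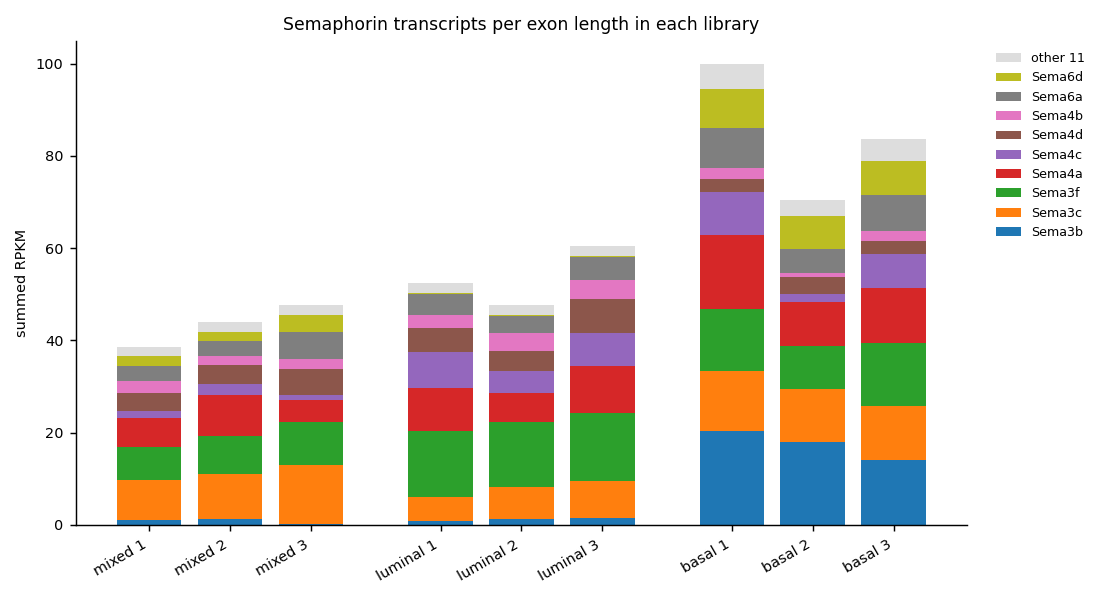
Summed level of semaphorin transcripts (y axis, RPKM) in each of the 9 libraries (x axis), with 1 colour per gene for the 9 most abundant semaphorins and light grey for the other 11. Bars start at 0, the 3 basal libraries are the tallest (70.3 to 99.9 RPKM), and the lowest block, Sema3b, is thick in basal libraries only.

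Luminal aggregates carried lower levels of much of the family than basal aggregates. Of the 25 members that passed the filter on low counts, 9 had less RNA and 2 had more in luminal than in basal aggregates by edgeR's quasi-likelihood test with Benjamini-Hochberg adjustment over all 18051 genes tested. The shares of all tested genes were 14.4% lower and 12.8% higher. The lower members were Sema3b, Sema3c, Sema3d, Sema5a, Sema6d, Plxna2, Plxnb1, Plxnd1 and Nrp2, and the higher members were Sema4d and Plxna3. The median log2 difference of the 25 was -0.80, against -0.02 for all genes tested. Mixed aggregates differed from basal aggregates in 6 members, all lower (Sema3b, Sema3d, Sema4c, Sema5a, Sema6c and Sema6d), and in none that was higher, against 7.33% lower and 6.39% higher among all tested genes. All 6 were semaphorins, and of the 9 tested plexins and neuropilins 0 were called here, with 1 at an unadjusted p below 0.05. DESeq2 called 9 members lower, all semaphorins, and 0 higher in the same comparison (11.8% lower and 7.69% higher among all genes of that fit). Limma-voom called 7 lower and 0 higher, against 9.33% lower and 7.91% higher among all genes. With the code series as a term 2 were lower (Sema3b and Sema3d, against 1.79% of all genes), and without basal 1 there were 3 (2.49%). Without basal 2, edgeR called 11 lower, against 13.1% of all genes, among them the receptors Plxna3 (-0.73, adjusted p = 0.019) and Plxnb1 (-0.89, adjusted p = 0.0032). Mixed aggregates exceeded luminal aggregates in 6 members (Sema3c, Sema5a, Sema6d, Plxna2, Plxnd1 and Nrp2) and were below them in 3 (Sema3f, Sema4c and Plxna3), against 15.2% higher and 14.2% lower among all tested genes. The 3 comparisons share libraries in pairs and are not independent of each other. The counts describe the 25 members that passed the filter, not the family of 31.

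**Figure D2:**
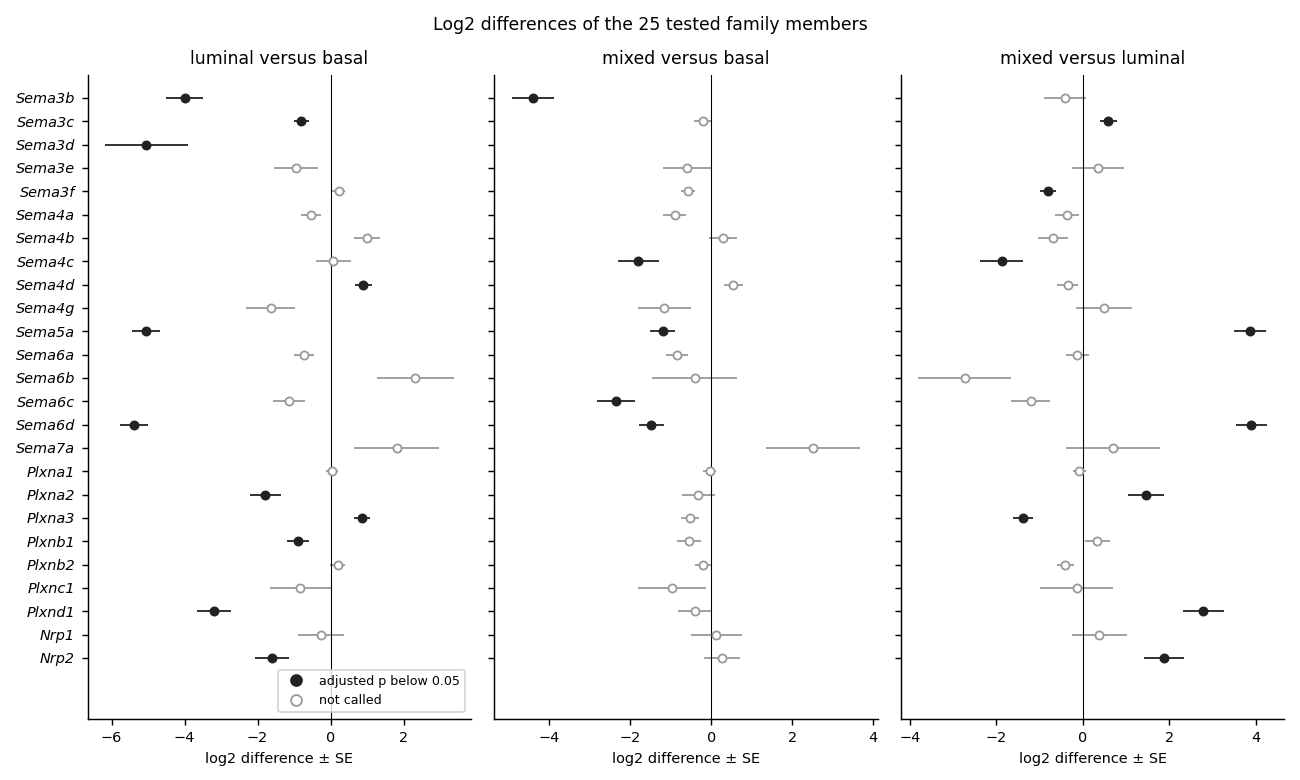
Fitted log2 difference with its standard error (x axis, 3 panels for luminal versus basal, mixed versus basal and mixed versus luminal) of the 25 tested members (y axis). Filled points passed an adjusted p of 0.05 and open points did not. Sema5a, Sema6d and Plxnd1 are far to the left in the first panel and far to the right in the third, and the 2 mixed differences of Sema3d are not drawn because its count was 0 in all mixed libraries.

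Among the secreted class 3 semaphorins, Sema3b was a basal transcript that stayed low in the mixture. Sema3b (chr9:107474873-107486428 in mm39, minus strand) encodes a neuropilin ligand whose human counterpart lies in a region often lost in tumours. It had 5.09, 5.91 and 0.926 CPM in mixed libraries, 3.56, 5.64 and 6.60 CPM in luminal libraries, and 97.7, 85.6 and 67.4 CPM in basal libraries. Every basal library lay far above the other 6, mixed and luminal libraries overlapped, and mixed 3 was the lowest of all 9. The log2 difference was -4.40 ± 0.52 (SE, adjusted p = 0.00035) for mixed versus basal and -3.99 ± 0.51 (adjusted p = 0.00013) for luminal versus basal. Mixed versus luminal did not pass the test (-0.41 ± 0.49, adjusted p = 0.56). Both calls held with the code series as a term (-4.44 ± 0.60, adjusted p = 0.0038, and -4.53 ± 0.88, adjusted p = 0.0078). In that fit the mixed libraries are in effect set against basal 2, the basal library of their own series, and luminal 1 against basal 1 and 3.

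Sema3d was likewise high in basal libraries only, at a much lower level. Sema3d (chr5:12433352-12638915, plus strand), a secreted cue known from heart and vessel patterning, had 0 counts in all 3 mixed libraries, 0.054, 0 and 0.249 CPM in luminal libraries, and 3.30, 3.80 and 3.39 CPM in basal libraries. Set against the floor of 0.185 CPM for 3 counts in a mixed library, its mean was at least 18.9-fold lower in mixed than in basal aggregates (adjusted p = 0.0059). Luminal versus basal was -5.04 ± 1.14 on the log2 scale (adjusted p = 0.0089). Mixed and luminal libraries were at or near the floor and could not be told apart at this depth. When the code series was a term, the call held for mixed versus basal (adjusted p = 0.036) and ended for luminal versus basal (-5.78 ± 2.20, adjusted p = 0.15).

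The other class 3 members were expressed in all groups. Sema3c (chr5:17779279-17935266, plus strand), an attractant or repellent depending on the cell, had 61.3, 69.2 and 91.1 CPM in mixed, 38.5, 50.1 and 58.7 CPM in luminal, and 91.5, 82.2 and 83.1 CPM in basal libraries. Luminal libraries lay below all others. The log2 difference was -0.80 ± 0.20 for luminal versus basal (adjusted p = 0.011) and 0.59 ± 0.20 for mixed versus luminal (adjusted p = 0.045). The first lost its call without luminal 1 (-0.65, adjusted p = 0.058). The second lost it when any 1 of mixed 2, mixed 3, luminal 1, luminal 2, basal 1 or basal 3 was left out (0.40 to 0.63, adjusted p from 0.068 to 0.18). The fit with the code series kept the first (-1.18 ± 0.28, adjusted p = 0.022) and ended the second (1.03 ± 0.38, adjusted p = 0.28). Sema3f (chr9:107558699-107587674, minus strand), which prefers neuropilin 2, had 37.3, 43.3 and 48.0 CPM in mixed, 73.8, 73.2 and 75.8 CPM in luminal, and 70.7, 48.9 and 71.4 CPM in basal libraries. All mixed libraries lay below all others, with basal 2 close above them. Mixed versus luminal was -0.79 ± 0.18 (adjusted p = 0.0094), which with the code series as a term was -0.25 ± 0.31 (adjusted p = 0.86). Sema3e, the ligand of Plxnd1, ranged from 0.923 to 5.46 CPM over the 9 libraries and was not called.

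Among the class 4 semaphorins, which sit in the membrane and act on B-type plexins, Sema4d was higher in luminal than in basal aggregates and Sema4c was low in mixed aggregates. Sema4d (chr13:51839565-51947783, minus strand), the ligand of Plxnb1, had 30.2, 30.3 and 43.0 CPM in mixed, 40.0, 34.5 and 57.2 CPM in luminal, and 22.2, 27.7 and 20.9 CPM in basal libraries. Every mixed and luminal library lay above every basal one. The log2 difference was 0.90 ± 0.24 for luminal versus basal (adjusted p = 0.016) and 0.55 ± 0.24 for mixed versus basal, which was not called (adjusted p = 0.15). The luminal call ended without luminal 3 (0.66, adjusted p = 0.084), without basal 3 (0.81, adjusted p = 0.069) and with the code series as a term (0.90 ± 0.35, adjusted p = 0.14). Sema4c (chr1:36587720-36597430, minus strand), a ligand of Plxnb2, had 7.50, 11.8 and 5.45 CPM in mixed, 35.5, 21.8 and 33.3 CPM in luminal, and 42.9, 8.43 and 34.3 CPM in basal libraries. Basal 2 fell among the mixed libraries and the other basal libraries among or above the luminal ones. It was lower in mixed than in luminal (-1.88 ± 0.50, adjusted p = 0.018) and than in basal aggregates (-1.80 ± 0.50, adjusted p = 0.036). In the fit with the code series, both differences were near 0 (0.08 ± 0.63 and -0.04 ± 0.44, adjusted p = 0.99 each). Leaving out single libraries ended the first call without mixed 1, mixed 3, luminal 1 or luminal 3 (-1.66 to -1.82, adjusted p from 0.053 to 0.064) and the second without mixed 1, mixed 3, luminal 1, basal 1 or basal 3 (-1.39 to -1.80, adjusted p from 0.052 to 0.15). Another gene name covers 7.27% of the exon bases of Sema4c, and the counting did not use strand.

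The remaining class 4 members were not called in any comparison by edgeR's test on all 9 libraries. Sema4a, known for its role in immune cells, had 33.9, 47.6 and 25.9 CPM in mixed, 50.3, 33.8 and 54.9 CPM in luminal, and 86.3, 50.6 and 63.6 CPM in basal libraries, and missed the threshold for mixed versus basal (-0.90 ± 0.28, adjusted p = 0.052). It passed without basal 2 (-1.08, adjusted p = 0.018) and by DESeq2 (-0.94, adjusted p = 0.015). The summed level of 10 immune markers was 48.2 to 67.9, 22.4 to 54.1 and 4.43 to 51.3 CPM in mixed, luminal and basal libraries, highest among the basal ones in basal 2. Most of the luminal sum was Cd68 (24.8, 20.9 and 50.2 CPM), and Csf1r and Adgre1 also had their highest means there (0.9709 and 0.2905 CPM). Cd74 and Lyz2 were at most 1.19 and 0.124 CPM in luminal libraries. They had 26.3 to 36.4 and 8.30 to 33.7 CPM in mixed libraries, and 27.3 and 15.4 CPM in basal 2. The part of immune cells in the values of Sema4a was not tested. Sema4b had 12 to 13.7 CPM in mixed, 16.9 to 22.5 CPM in luminal, and 4.79 to 13.5 CPM in basal libraries, and missed it for luminal versus basal (1.00 ± 0.35, adjusted p = 0.054). Its lowest value was that of basal 2. DESeq2 called Sema4b in luminal versus basal (0.99, adjusted p = 0.029), and without basal 2 edgeR called it lower in mixed than in luminal aggregates (-0.70, adjusted p = 0.026). Sema4g stayed between 0.540 and 4.41 CPM, and DESeq2 called it lower in luminal aggregates when set against basal ones (-1.65, adjusted p = 0.029).

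Sema5a and Sema6d were far higher in aggregates that held basal cells than in luminal aggregates. Sema5a (chr15:32244956-32696487, plus strand), a membrane semaphorin with thrombospondin repeats, had 9.61, 10.5 and 13.8 CPM in mixed, 1.13, 0.653 and 0.498 CPM in luminal, and 32.2, 20.2 and 25.4 CPM in basal libraries. The groups did not overlap, and the mixed libraries lay between the others. The log2 difference was -5.07 ± 0.39 for luminal versus basal (adjusted p = 2.8e-06), 3.87 ± 0.37 for mixed versus luminal (adjusted p = 3.2e-05) and -1.20 ± 0.32 for mixed versus basal (adjusted p = 0.028). The last call ended without mixed 1, mixed 2, basal 1 or basal 3 (-1.01 to -1.22, adjusted p from 0.079 to 0.15) and with the code series as a term (-0.84 ± 0.35, adjusted p = 0.25). The other differences held with that term (-4.66 ± 0.52, adjusted p = 0.00033, and 3.82 ± 0.62, adjusted p = 0.013).

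Sema6d (chr2:123931889-124509690, plus strand), a ligand of Plxna1, had 24.8, 22.3 and 39.6 CPM in mixed, 2.70, 0.890 and 2.18 CPM in luminal, and 88.9, 75.2 and 77.7 CPM in basal libraries. Here too the 3 groups were separate and the mixed libraries lay between. The log2 difference was -5.38 ± 0.38 for luminal versus basal (adjusted p = 1.6e-06), 3.90 ± 0.36 for mixed versus luminal (adjusted p = 2.6e-05) and -1.48 ± 0.31 for mixed versus basal (adjusted p = 0.010). Adding the code series ended the mixed versus basal call (-1.38 ± 0.38, adjusted p = 0.078) and kept the others (-4.95 ± 0.58, adjusted p = 0.00046, and 3.57 ± 0.67, adjusted p = 0.026). Plxna1, its receptor, was among the most even members, with 85.1, 88.3 and 102 CPM in mixed, 94.5, 94.2 and 102 CPM in luminal, and 88.8, 108 and 86.5 CPM in basal libraries. Another gene name covers 10.7% of the exon bases of Plxna1, so part of its count is uncertain.

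Of the other class 6 and class 7 members, Sema6c alone was called by edgeR's test on all 9 libraries. Sema6c (chr3:95067768-95081335, plus strand), a transmembrane semaphorin, had 1.37, 2.09 and 1.80 CPM in mixed, 4.59, 3.32 and 4.23 CPM in luminal, and 12.7, 4.63 and 9.54 CPM in basal libraries. The 3 groups did not overlap, and basal 2 was just above the highest luminal library. Mixed versus basal was -2.35 ± 0.47 (adjusted p = 0.008). That call ended without basal 1 (-2.02, adjusted p = 0.053) and with the code series as a term (-1.40 ± 0.52, adjusted p = 0.18). DESeq2 also called Sema6c in luminal versus basal (-1.15, adjusted p = 0.035) and in mixed versus luminal (-1.25, adjusted p = 0.026). So did edgeR without basal 2 (-1.46, adjusted p = 0.021, and -1.21, adjusted p = 0.028). Sema6a had 26.9 to 51.3 CPM in mixed, 32.9 to 44.7 CPM in luminal, and 46.7 to 75.3 CPM in basal libraries (mixed versus basal -0.84 ± 0.27, adjusted p = 0.064). That difference passed by DESeq2 (-0.87, adjusted p = 0.029), without basal 2 (-1.03, adjusted p = 0.018) and with a replicate block (-0.87, adjusted p = 0.030). Sema6b, at 0 to 0.916, 2.30 to 3.08 and 0.254 to 0.862 CPM in mixed, luminal and basal libraries, had non-overlapping luminal values but did not pass edgeR's test (luminal versus basal 2.32 ± 1.05, adjusted p = 0.13). DESeq2 called it in luminal versus basal (2.35, adjusted p = 0.033) and in mixed versus luminal (-2.80, adjusted p = 0.0095). Sema7a, the lipid-anchored semaphorin, and Plxnc1, its plexin, both stayed below 2.5 CPM in every library.

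**Figure D3:**
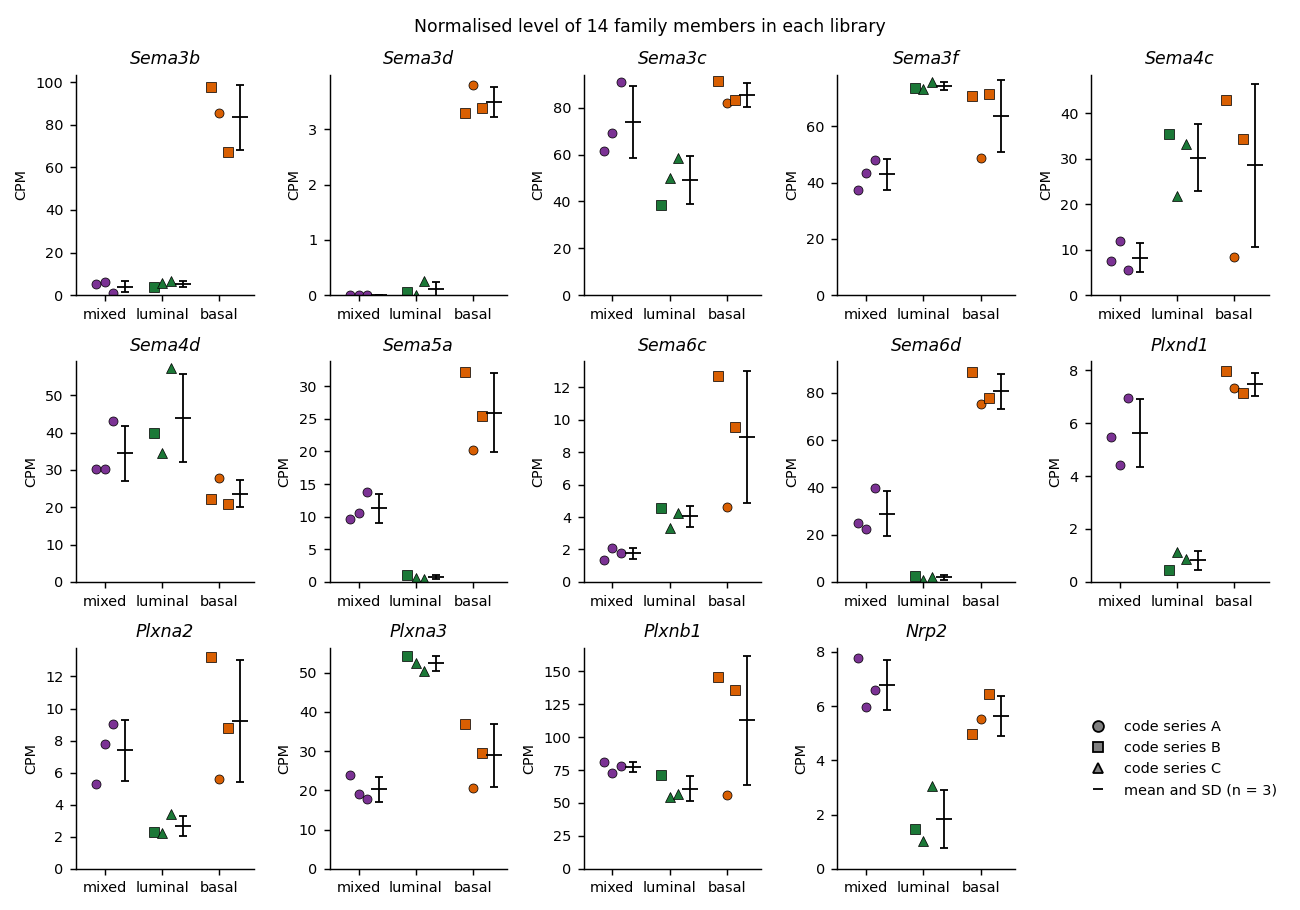
Normalised level (y axis, CPM, linear from 0, a separate scale in each panel) of the 14 members called in at least 1 comparison, in mixed, luminal and basal libraries. Each point is 1 library and its shape gives the code series, and the bars give the mean and SD of 3 libraries. Sema3b and Sema3d are high in basal libraries only, and for Sema4c the single basal library of series A (8.43 CPM) lies at the level of the mixed libraries.

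Among the receptors, Plxnd1, Plxna2 and Nrp2 were low in luminal aggregates and close in mixed and basal aggregates. Plxnd1 (chr6:115931772-115971966, minus strand), the receptor that binds Sema3e without a neuropilin, had 5.49, 4.43 and 6.97 CPM in mixed, 0.432, 1.13 and 0.871 CPM in luminal, and 7.96, 7.33 and 7.13 CPM in basal libraries. All luminal libraries were far below the rest, and all mixed libraries were below all basal ones. The log2 difference was -3.20 ± 0.47 for luminal versus basal (adjusted p = 0.00037), 2.79 ± 0.47 for mixed versus luminal (adjusted p = 0.0016) and -0.41 ± 0.42 for mixed versus basal (adjusted p = 0.56). The first held with the code series as a term (-4.11 ± 0.76, adjusted p = 0.0057) and the second ended (3.73 ± 0.93, adjusted p = 0.082).

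Plxna2 (chr1:194300526-194499177, plus strand), which binds class 6 semaphorins and pairs with neuropilins, had 5.32, 7.81 and 9.04 CPM in mixed, 2.32, 2.26 and 3.42 CPM in luminal, and 13.2, 5.62 and 8.80 CPM in basal libraries. Luminal libraries were the 3 lowest, and mixed and basal libraries overlapped. Luminal versus basal was -1.79 ± 0.42 (adjusted p = 0.0079) and mixed versus luminal 1.47 ± 0.42 (adjusted p = 0.022). The first call ended without basal 1 (-1.41, adjusted p = 0.051), and the second without mixed 2, mixed 3, luminal 1 or luminal 2 (1.29 to 1.42, adjusted p from 0.053 to 0.08). Nrp2 (chr1:62742444-62857854, plus strand), the co-receptor for Sema3f and for VEGF-C, had 7.78, 5.97 and 6.59 CPM in mixed, 1.46, 1.01 and 3.05 CPM in luminal, and 4.97, 5.51 and 6.44 CPM in basal libraries. Luminal libraries again were the 3 lowest, and mixed and basal libraries overlapped. Luminal versus basal was -1.62 ± 0.47 (adjusted p = 0.023) and mixed versus luminal 1.88 ± 0.47 (adjusted p = 0.013). The first call ended without luminal 1, luminal 2 or basal 3 (-1.32 to -1.51, adjusted p from 0.079 to 0.091) and the second without luminal 1 (1.73, adjusted p = 0.055). With the code series as a term, Nrp2 was not called in luminal versus basal (adjusted p = 0.15) or mixed versus luminal (adjusted p = 0.42), and Plxna2 was called in luminal versus basal only (-2.24 ± 0.63, adjusted p = 0.044; mixed versus luminal 2.64 ± 0.83, adjusted p = 0.19).

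Plxna3 ran the other way. Plxna3 (chrX:73372672-73388295, plus strand), which with neuropilin 2 forms a receptor for Sema3f, had 23.8, 19.1 and 17.8 CPM in mixed, 54.3, 52.6 and 50.5 CPM in luminal, and 36.8, 20.6 and 29.4 CPM in basal libraries. All luminal libraries exceeded all others, and basal 2 lay among the mixed libraries. Luminal versus basal was 0.86 ± 0.23 (adjusted p = 0.015) and mixed versus luminal -1.38 ± 0.23 (adjusted p = 0.0016). With the code series as a term these were 0.71 ± 0.27 (adjusted p = 0.13) and -0.74 ± 0.38 (adjusted p = 0.49). Plxnb1 (chr9:108924457-108948985, plus strand), the Sema4d receptor that can associate with the receptor tyrosine kinases Met and Erbb2, had 80.9, 72.9 and 77.7 CPM in mixed, 71.4, 54.2 and 57.1 CPM in luminal, and 146, 56.0 and 136 CPM in basal libraries. Basal 1 and basal 3 were far above the other libraries and basal 2 was among the luminal ones. Luminal versus basal was -0.89 ± 0.29 (adjusted p = 0.043), a call that ended when any 1 library other than basal 2 was left out (-0.64 to -1.01, adjusted p from 0.054 to 0.18). Without basal 2 it was -1.22 ± 0.16 (adjusted p = 0.00022), and with the code series as a term -0.98 ± 0.20 (adjusted p = 0.010). Mixed versus luminal was not called (0.34 ± 0.29, adjusted p = 0.40), but was with the code series as a term (1.45 ± 0.28, adjusted p = 0.027). The latter value joins the step from basal 2 to the mixed libraries with the step from luminal 1 to basal 1 and 3. It therefore includes the gap between basal 2 and the other basal libraries. Plxnb2 (125 to 162, 154 to 244 and 151 to 186 CPM in mixed, luminal and basal libraries) and Nrp1, the main co-receptor of Sema3a (1.20 to 5.05, 1.46 to 3.50 and 1.83 to 4.19 CPM), overlapped between all groups and were not called.

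Promoter sequence is shown for Sema3d, Sema5a and Plxnd1, since these members passed a test against a 2-fold difference for luminal versus basal, chosen after the data were seen, and have a single start in the RefSeq promoter table. Each line gives the 250 bases before the start, 5′ to 3′, in mouse build GRCm38.p6, which is not the build of the counts (mm39). The positions are chr5:12382916-12383165 (plus strand) for Sema3d, chr15:32244563-32244812 (plus strand) for Sema5a and chr6:115995006-115995255 (minus strand) for Plxnd1, and capitals mark the motif CACCTG.
Sema3d: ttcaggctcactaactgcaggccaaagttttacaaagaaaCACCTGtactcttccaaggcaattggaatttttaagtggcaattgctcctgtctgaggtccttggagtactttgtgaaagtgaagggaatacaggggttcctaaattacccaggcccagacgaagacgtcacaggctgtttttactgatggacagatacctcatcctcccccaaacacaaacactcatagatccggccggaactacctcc
Sema5a: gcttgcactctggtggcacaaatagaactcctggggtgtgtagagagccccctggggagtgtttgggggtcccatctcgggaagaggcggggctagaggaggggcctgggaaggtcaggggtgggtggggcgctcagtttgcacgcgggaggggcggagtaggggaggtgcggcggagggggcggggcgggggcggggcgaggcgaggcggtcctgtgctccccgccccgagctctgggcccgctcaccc
Plxnd1: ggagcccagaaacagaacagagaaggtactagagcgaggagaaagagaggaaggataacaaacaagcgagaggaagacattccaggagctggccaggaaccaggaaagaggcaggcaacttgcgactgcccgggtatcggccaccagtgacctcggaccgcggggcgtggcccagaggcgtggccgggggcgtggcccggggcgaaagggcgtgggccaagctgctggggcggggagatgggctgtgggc

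Both strands of these windows were searched for TGANTCA (bound by AP-1), CACCTG (an E-box bound by Snail and Zeb factors) and TTCNNNGAA (bound by STAT factors). The only match was CACCTG in the Sema3d window, 210 bases before the start. The bases after that start were not found in a reference transcript of Sema3d, whereas those of Sema5a and Plxnd1 were found in theirs. The start of Sema3d is therefore less certain. The table held windows for 26 of the 31 members, 37 windows in all. TGANTCA was in 3 of them (8.11%), CACCTG in 5 (13.5%) and TTCNNNGAA in 0, against 6.75%, 17.2% and 7.02% of all 32851 windows of the table. A match is a run of letters and no evidence of binding. The windows differ in base composition, with 46.8% G and C for Sema3d, 72.0% for Sema5a and 64.8% for Plxnd1.

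For the members that were at least 2-fold lower in luminal than in basal aggregates and called there, the level in the mixture was placed on a scale on which the luminal mean is 0% and the basal mean is 100%. These 7 members fell at different points of that scale. Sema3d and Sema3b lay at the luminal end, at -2.97% and -1.65%, and no mixed library exceeded 0.819% for either. Sema6d was at 34.3% (29.1%, 25.9% and 47.9% in mixed 1, 2 and 3) and Sema5a at 41.9% (35.1%, 38.7% and 51.9%). Plxna2 was at 72.1% (40.5%, 78.6% and 97.3%), Plxnd1 at 72.3% (70.3%, 54.3% and 92.5%) and Nrp2 at 130% (156%, 109% and 125%). All 3 mixed libraries lay above the basal mean for Nrp2, and for Plxna2 mixed 1 lay within the range of Sema5a and Sema6d. On the same scale the 12 basal markers had a median of 48.7% and ran from 0.845% (the oxytocin receptor Oxtr) to 215% (Tagln, which was low in all groups). Positions of single genes were not tested against each other or against the markers.

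**Figure D4:**
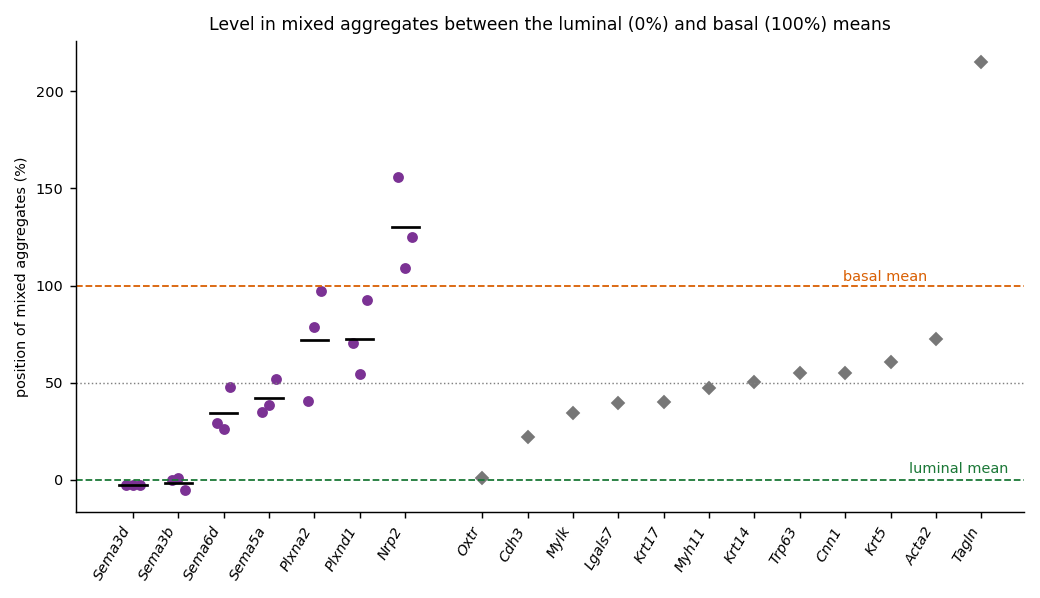
Position of the mixed aggregates (y axis, percent) between the luminal mean (0%) and the basal mean (100%) in CPM. Purple points are the 3 mixed libraries and black bars their means for 7 family members, and grey diamonds are means for the 12 basal markers. The means of Sema3d and Sema3b sit close to 0%, those of Sema6d and Sema5a below 50%, and those of the receptors Plxna2, Plxnd1 and Nrp2 above it, while single libraries of Plxna2 overlap those of Sema5a and Sema6d.

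Against a minimum difference of 2-fold, a test chosen after the data were seen, fewer members passed. Lower in luminal than in basal aggregates were Sema3b, Sema3d, Sema5a, Sema6d and Plxnd1 (5 of 25, against 6.27% of all tested genes), and none was higher (4.07%). Lower in mixed than in basal aggregates were Sema3b (adjusted p = 0.0015) and Sema3d (adjusted p = 0.018), against 0.665% of all tested genes, and none was higher (1.43%). Higher in mixed than in luminal aggregates were Sema5a, Sema6d and Plxnd1, against 3.65% of all tested genes, and none was lower (1.60%).

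No family member was called above or below both pure groups at once, against 0.0499% of all tested genes above and 0.0388% below. At an unadjusted p below 0.05 there were 5 members outside both groups, all of them below (Sema3d, Sema3f, Sema4c, Sema6c and Plxna3). The share of all genes at that cut was not counted. DESeq2 called 1, Sema4c, as below both, and limma-voom called 0. The share of all genes called below both was 2.39% by DESeq2 and 0.0443% by limma-voom. Without basal 2, Sema3f, Sema4c and Plxna3 were called below both, against 3.54% of all genes in that fit. In these 3 genes basal 2 was the lowest basal library, at 48.9, 8.43 and 20.6 CPM.

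The 6 members that did not pass the filter were Sema3a, Sema3g, Sema4f, Sema5b, Plxna4 and Plxnb3. Sema3g had no count in any library, and the others had between 10 and 62 counts over the 9 libraries. Sema4f reached 0.114, 0.800 and 1.36 CPM in mixed libraries and at most 0.311 CPM in luminal and 0.230 CPM in basal libraries. Plxnb3, a plexin that binds Sema5a, had no count in mixed libraries, 1.19, 0.356 and 0.934 CPM in luminal libraries, and 0.152, 0 and 0.402 CPM in basal libraries. Set against the floor of a mixed library, its mean was at least 4.46-fold lower in mixed than in luminal aggregates, a difference that was called by DESeq2 (adjusted p = 0.0045) and by edgeR without basal 2 (adjusted p = 0.012). Sema3a, the best-known repellent of the family, stayed at or below 0.575 CPM.

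The genes that work with the family were listed from textbook knowledge, with earlier results of these data known. They were 77 co-receptors, VEGF ligands of neuropilins, processing proteases and effectors inside the cell, of which 74 were tested. In luminal versus basal aggregates 16 were higher and 17 lower, which is 44.6% called against 27.1% of all tested genes. In mixed versus basal aggregates 9 were higher and 13 lower (29.7% against 13.7%), and in mixed versus luminal aggregates 13 were higher and 11 lower (32.4% against 29.4%). The median log2 difference of the list was 0.02, -0.04 and 0.02 in these comparisons, against -0.02, -0.07 and -0.05 for all tested genes. None was called outside both pure groups (7 at an unadjusted p below 0.05, and DESeq2 called 1 above and 2 below). With the code series as a term, the counts were 9 higher and 10 lower, 2 and 7, and 4 and 2 in the same order of comparisons. The shares of all tested genes in that fit were 7.09% higher and 6.80% lower, 2.93% and 1.79%, and 2.05% and 0.670%. Of the 18 largest called differences at 5 CPM or more, those of the 12 partners that ranked among the 3 highest or 3 lowest of a comparison, 14 kept their call with that term and 4 lost it.

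Among the VEGF ligands and receptors, Pgf and Flt1 were high in basal libraries only. Pgf, the placental growth factor that binds neuropilins, had 17.7, 12 and 11.5 CPM in mixed, 12.6, 17.6 and 20.2 CPM in luminal, and 136, 165 and 130 CPM in basal libraries (mixed versus basal -3.39, adjusted p = 1.3e-05). Its receptor Flt1 had 2.86, 3.20 and 0.545 CPM in mixed, 2.0, 2.31 and 1.62 CPM in luminal, and 13.2, 23.0 and 14.1 CPM in basal libraries (-2.93, adjusted p = 0.0067). In both genes all basal libraries exceeded all others, and mixed and luminal libraries overlapped. Flt1 is also made by endothelial cells, and the summed level of 9 endothelial markers was 8.01 to 15.4 CPM in mixed, 4.21 to 9.15 CPM in luminal and 8.10 to 12.4 CPM in basal libraries. Egfl7 was the largest member. Esam, Emcn and Cldn5 were at 0 in all mixed libraries and at most 0.685 CPM in the others. Pecam1 (2.22, 0.5089 and 1.422 CPM in mixed, luminal and basal aggregates) and Cdh5 (1.344, 0.06224 and 0.05219 CPM) had their highest means in mixed aggregates. The remaining markers had theirs in luminal or basal aggregates. Vegfa ran the other way, with 32.5, 29.6 and 32.1 CPM in mixed, 147, 93.1 and 118 CPM in luminal, and 31.7, 27.9 and 30.2 CPM in basal libraries (mixed versus luminal -1.93, adjusted p = 3.5e-05). With the code series as a term, Pgf (adjusted p = 0.00016), Flt1 (adjusted p = 0.025) and Vegfa (adjusted p = 0.0088) kept these calls. The VEGF receptor Kdr did not pass the filter and reached 1.09 CPM at most.

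Inside the cell, the collapsin response mediators Dpysl2 and Dpysl3, which carry semaphorin signals to microtubules, were nearly absent from luminal aggregates. Dpysl3 had 25.3, 26.5 and 17.9 CPM in mixed, 0.486, 0.0593 and 1.12 CPM in luminal, and 113, 175 and 106 CPM in basal libraries (luminal versus basal -7.89, adjusted p = 1.1e-06). Dpysl2 had 38.0, 35.2 and 41.8 CPM in mixed, 2.05, 2.55 and 1.12 CPM in luminal, and 41.1, 93.8 and 45.5 CPM in basal libraries (luminal versus basal -4.97, adjusted p = 3.9e-06). Both genes separated luminal from all other libraries, and basal 2 was the highest library in both. Dpysl2 and Dpysl3 are also expressed by nerve cells, and the nerve list (8 genes, mostly Sox10) summed to 363 to 409, 555 to 670 and 388 to 430 CPM in mixed, luminal and basal libraries. Mical1, an oxidase that severs actin filaments downstream of plexins, was lower in mixed than in basal aggregates (-2.77, adjusted p = 0.023), a call that ended with the code series as a term (-1.57 ± 0.78, adjusted p = 0.34). Fes, a tyrosine kinase that acts downstream of Plxna1, was higher in luminal (3.13, adjusted p = 4e-05) and in mixed (1.67, adjusted p = 0.008) than in basal aggregates, with 8.74 to 11.6, 20.5 to 36.3 and 2.04 to 4.14 CPM in mixed, luminal and basal libraries. The calls given for Dpysl2, Dpysl3 and Fes held with that term (adjusted p from 0.00028 to 0.034). The fibroblast list of 9 markers summed to 50.6 to 71.9, 6.77 to 11 and 121 to 153 CPM in mixed, luminal and basal libraries. That is the order in which Sema5a, Sema6d and Dpysl3 ran, but the step from basal to mixed lay mostly in Fbln1. Its means were 31.57, 0.6892 and 105.8 CPM in mixed, luminal and basal aggregates. Col1a1, Pdgfra and Pdgfrb also had lower means in mixed than in basal aggregates, whereas Col1a2, Col3a1, Dcn, Lum and Dpt had higher ones. Col1a2 (6.129, 0 and 5.159 CPM) and Col3a1 (3.248, 0.1245 and 2.894 CPM) were near 0 in luminal and close in mixed and basal aggregates. Plxnd1, Plxna2 and Nrp2 too were lowest in luminal and close in mixed and basal aggregates. Col1a1, Pdgfra and Dcn had means of 2.761, 2.457 and 3.399 CPM in luminal aggregates. The part of fibroblasts in the differences of Dpysl3 or of any family member was not tested.

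Of the surface partners, Met, the hepatocyte growth factor receptor that can associate with Plxnb1, had 91.5, 98.4 and 114 CPM in mixed, 144, 165 and 215 CPM in luminal, and 75.4, 51.2 and 55.4 CPM in basal libraries. The 3 groups did not overlap, and luminal versus basal was 1.53 (adjusted p = 0.00021; 1.14, adjusted p = 0.015, with the code series as a term). Erbb2 was lower in mixed than in luminal aggregates (-0.78, adjusted p = 0.027). Itgb1, the integrin chain that semaphorin 7A can engage, had 356 to 416, 440 to 555 and 320 to 416 CPM in mixed, luminal and basal libraries and was not called. Timd2, a surface protein reported as a receptor of Sema4a in mouse, was higher in luminal (3.96, adjusted p = 1.9e-05) and mixed (3.40, adjusted p = 0.00028) than in basal aggregates. Cntn2, a neural adhesion protein, was higher in mixed than in luminal aggregates (5.99, adjusted p = 0.0017) and lower in luminal aggregates when set against basal ones (-4.42, adjusted p = 0.0053). Chl1, an adhesion protein that can pair with Nrp1, was lower in mixed than in luminal aggregates (-1.64, adjusted p = 0.0016). Among the proteases, Furin, which cleaves class 3 semaphorins, had 102 to 119, 182 to 230 and 92.7 to 142 CPM in mixed, luminal and basal libraries and was lower in mixed than in luminal aggregates (-0.84, adjusted p = 0.0087). Pcsk6 was higher in mixed than in basal aggregates (1.29, adjusted p = 0.023), and Pcsk7 was lower in mixed than in luminal aggregates (-1.79, adjusted p = 0.011). Among these surface partners and proteases, the calls of Timd2 and Cntn2 held with the code series as a term (adjusted p from 0.00086 to 0.018). Those of Chl1 (adjusted p = 0.10), Pcsk6 (adjusted p = 0.085), Pcsk7, Furin and Erbb2 ended, and the mixed versus luminal difference in that fit was -0.14 for Pcsk7, -0.10 for Furin and 0.09 for Erbb2 (adjusted p from 0.96 to 0.99).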

How the data were processed

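RNA of 9 samples was sequenced after stranded mRNA library preparation. The authors deposited whole-number counts per gene name with summed exon lengths; per the file headers and the submitters' processing notes, featureCounts 2.0.1 counted exons on build mm39 after Trim Galore and Subread. Strand was not used in counting, so overlapping antisense genes cannot be told apart. For aligner settings and the annotation release, the sources used here give nothing.

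Members and partner and marker lists were chosen with earlier results of these data known. Genes passed filterByExpr, libraries were scaled by TMM, and all 9 were fitted together (6 residual degrees of freedom) with edgeR 4.0.16 in R 4.3.3. Contrasts were tested by the robust quasi-likelihood test (two-sided), with Benjamini-Hochberg adjustment over 18051 genes and a threshold of 0.05. SE is the log2 difference divided by the root of F. A gene outside both pure groups had to share a sign in both contrasts, and the larger p was adjusted. CPM carry no pseudocount, and RPKM are CPM per kilobase of the deposited exon length. Full values per library are given for members called in any contrast with a group mean of at least 5 CPM, and for Sema3d and a few others. Partners named are the 3 largest called differences each way with a group mean of at least 5 CPM, plus Met, Erbb2, Itgb1, Vegfa, Kdr and Furin. Alternatives were other scalings and filters, DESeq2 1.42.0, limma-voom (limma 3.58.1), fits of 2 groups, the title number as replicate block, the code series as a term, and each library left out in turn. The fit was tested on simulated data. No library was a duplicate of another. Promoter windows come from a RefSeq table.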

Additional observations from a re-analysis of the deposited data

How the results depend on the processing

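Of the 26 called member differences, 8 kept their call under each of the 19 settings tried and 18 lost it under at least 1. The code series as a term ended 15 of them, 1 with a change of sign. It brought the counts to 0 higher in luminal than in basal, 2 lower in mixed than in basal, 3 higher and 0 lower in mixed than in luminal aggregates. The shares of all genes in that fit were 7.09%, 1.79%, 2.05% and 0.67%. DESeq2 gave 4 higher in luminal than in basal, 6 lower in mixed than in luminal and 1 below both pure groups. Among all genes the DESeq2 shares were 13.2%, 16.8% and 2.39%. Limma-voom gave 4 higher in luminal than in basal, against 13.8% of all genes. With no filter on low counts, 5 were lower in mixed than in luminal and 1 was below both, against 9.67% and 1.77% of all genes. Without TMM, 1 was higher in luminal than in basal, and the median of all genes moved to -0.17 for luminal versus basal, -0.22 for mixed versus basal and -0.06 for mixed versus luminal, with 1750 genes higher and 3249 lower for luminal versus basal, against 2304 and 2595 with TMM. Against a 2-fold difference, counts were 0 higher and 5 lower for luminal versus basal, 2 lower for mixed versus basal, and 3 higher and 0 lower for mixed versus luminal.

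With 1 library left out, luminal versus basal had 1 to 3 members higher and 6 to 11 lower. Among all genes these shares were 8.68% to 13.4% and 10.1% to 15.1%. Mixed versus basal had 0 higher and 3 (without basal 1) to 11 (without basal 2) lower, against 2.95% to 13.9% and 2.14% to 13.1% of all genes. Mixed versus luminal had 3 to 6 higher and 2 to 6 lower, against 8.18% to 17.9% and 7.48% to 17.8%. Below both pure groups were 0 to 3 members, against at most 3.54% of all genes. The replicate block ended 1 call, Sema4c in mixed versus basal aggregates (-1.60, adjusted p = 0.082), and added Sema6a in luminal versus basal (-0.71, adjusted p = 0.035) and mixed versus basal (-0.87, adjusted p = 0.030). Its counts were 2 higher and 10 lower, 0 and 6, and 6 and 3, for luminal versus basal, mixed versus basal and mixed versus luminal. The shares of all genes with that block were 11.9% and 13.3%, 6.2% and 5.58%, and 14.9% and 12.8%. Only title numbers were tested, and the sample descriptions number the libraries differently. The title numbers showed no sign of pairing (r from -0.18 to 0.27, 3 of 9 libraries closest to their own number).

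Among members called in any comparison, signs changed for the log2 difference of Sema4c, luminal versus basal, which was -0.113 without TMM, -0.121 with the code series and from -0.361 (without basal 2) to 0.508 (without basal 1) with 1 library left out. They also changed for Plxna2, mixed versus basal (0.395 with the code series, and -0.590 without basal 2 to 0.039 without basal 1), Plxnb1, mixed versus basal (0.463 with the code series), Sema3b, mixed versus luminal (0.097 with the code series, and -0.817 without mixed 2 to 0.058 without mixed 3), and Sema4c, mixed versus luminal (0.084 with the code series). Of these, Sema4c in mixed versus luminal was the only one called as reported. With the code series, 7 differences of the 11 tested members that edgeR did not call on all 9 libraries changed sign too, the widest being Sema4b in mixed versus luminal (1.01, against -0.69). The cause was not tested. The fit of only the 2 groups compared cannot give genes outside both groups.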
